A study of Homo sapiens with 9 samples.

Results

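The baseline transcriptome of A549 cells was described from 3 RNA sequencing libraries, shCtrl replicates 1, 2 and 3, out of 9 libraries in the series. They were chosen by their label, a control short hairpin RNA, and not by any measured value. The remaining libraries, labelled with hairpins directed at HES1 or HES4, were not used, and no comparison between groups was made. A549 is an established cell line from a human lung adenocarcinoma, and a control short hairpin RNA is meant to enter the RNA interference pathway without silencing a gene. All 3 libraries carry this hairpin, the labels name neither its vector nor its promoter, and no untransduced cells are among the samples. The labels also do not say whether the replicates were separate cultures, so the spread given here may be technical.

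A549 cells are widely used as a stand-in for type II alveolar cells (AT2), which make the surfactant of the lung, although the line came from a tumour. As background, the line carries inactivating mutations of KEAP1, STK11 and SMARCA4, and a deletion that takes in CDKN2A. KEAP1 normally marks the transcription factor NRF2 for degradation, and NRF2 drives genes for detoxification, glutathione, iron storage and NADPH supply.

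Total estimated counts were 26.4, 23.9 and 24.4 M in replicates 1, 2 and 3. Levels are given as TPM, counts divided by the length of the gene's exons and scaled to the same sum in each library, so that genes can be compared with each other. Spread between libraries is given on CPM, counts scaled to library size with TMM factors, with no division by length. A gene is termed expressed at 1 TPM or more in each of the 3 libraries, silent under 0.1 TPM in each, and low otherwise. Limits given for a count of 0 cover counting error alone. Whether PCR copies of a molecule were counted as separate reads is not given in the sources used here.

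Replicate 3 stood apart from replicates 1 and 2. Mitochondrially encoded genes took 7.16% of its counts, against 6.23% in replicate 1 and 6.35% in replicate 2, and cytosolic ribosomal protein genes took 4.48%, against 4.97% and 4.91%. Over genes with at least 20 counts, the chi-square per degree of freedom was 6.36 between replicates 3 and 1, 4.81 between replicates 3 and 2, and 2.42 between replicates 1 and 2. No 2 libraries agreed within counting error. Values for each library are therefore given below, and the spread is given with and without replicate 3.

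Of 19877 nuclear protein-coding genes, 12289 (61.8%) were expressed, 3311 were low and 4277 (21.5%) were silent, and 2918 of the silent genes had 0 counts in all 3 libraries. The share of 61.8% is the background for each count of expressed list members given here, and a list near it does not stand apart. The lists were chosen with earlier results of these data known, so a higher share is a description only. The median level over these 19877 genes was 6.02 TPM. Many genes lay near the threshold, since 733 had a mean of 0.5 to 1 TPM, 784 a mean of 1 to 2 TPM, and 500 reached 1 TPM in some but not all libraries. At 100 TPM or more in each library stood 1322 genes, and at 1000 TPM or more 69 genes. The 10 most abundant genes held 10.6% of the summed nuclear mRNA level, the top 100 held 26.9% and the top 1000 held 58.7%.

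The 25 most abundant nuclear mRNAs were led by the subunits of ferritin, the iron store of the cell. FTL, the ferritin light chain (ENSG00000087086, chromosome 19 from 48965301 to 48966878, plus strand, GRCh38), stood at 32013, 31626 and 31857 TPM in replicates 1, 2 and 3. FTH1, the heavy chain with the ferroxidase site (ENSG00000167996), stood at 9626, 9830 and 9747 TPM. The 3 libraries lay close together for both, and the light chain had a CV of 0.962%.

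Next came ALDH1A1, which oxidises retinaldehyde and other aldehydes (ENSG00000165092, chromosome 9 from 72900662 to 73080442, minus strand), at 7369, 7262 and 6933 TPM. The aldo-keto reductases AKR1B1 and AKR1B10, which reduce aldehydes and sugars, also ranked among the 25. AKR1B1 read 2636, 2570 and 2263 TPM, with replicate 3 below the other libraries, and AKR1B10 read 2260, 2241 and 2141 TPM. AKR1B10 has the close copy AKR1B15, so the division of reads between them is uncertain.

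The remainder of the 25 held housekeeping genes and a few that are less usual in lung epithelium. GAPDH and PKM of glycolysis, the actins ACTB and ACTG1, the actin-binding thymosins TMSB10 and TMSB4X, the elongation factor EEF1A1, the chaperone HSP90AB1, the tubulin TUBA1B and ribosomal protein genes such as RPL41, RPS2, RPL13A, RPL19 and RPL8 made up most of it. KRT81, a keratin of hair, stood at 3392, 3411 and 3171 TPM, above the simple keratin KRT18 at 2060, 2007 and 1894 TPM. Its near-identical neighbour KRT86 stood at 3.74, 4.004 and 4.75 TPM, a division of reads that is likewise uncertain. The neutrophil chemokine CXCL5 read 2048, 2102 and 2022 TPM, and the lysosomal proteases CTSD and CTSL averaged 1961 ± 74.0 and 1955 ± 69.8 TPM (SD, n = 3). Membership of the 25 depends on the gene length used. With the length of the longest transcript, KRT8 and ENO1, which are not among the 25, averaged 3224 and 2688 TPM. By that length KRT81, CXCL5 and CTSL averaged 2497, 1545 and 1596 TPM.

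**Figure D1:**
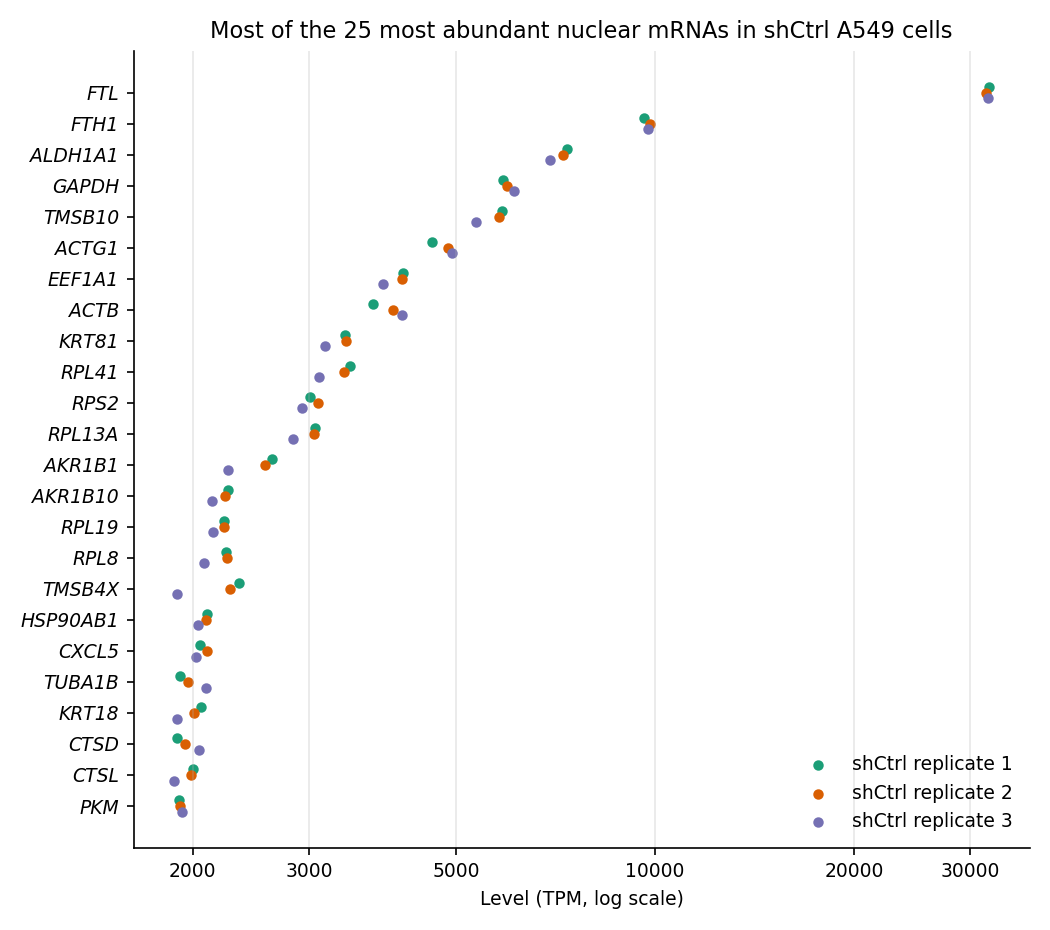
Levels of most of the 25 most abundant nuclear protein-coding genes in TPM (log axis) in shCtrl replicates 1, 2 and 3, each library a point. FTL at 32013, 31626 and 31857 TPM lies above FTH1 at 9626, 9830 and 9747 TPM, and the points of replicate 3 lie to the left of the others for AKR1B1, TMSB4X and the ribosomal protein genes.

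Protein-coding genes, mitochondrial ones included, took 96.4 ± 0.0433% of the counts, mitochondrial ribosomal RNA 1.49 ± 0.0750% and long noncoding RNA genes 1.40 ± 0.0771% (SD, n = 3). Among genes of other types, 40 nuclear ones exceeded 100 TPM in each library. The first was the processed pseudogene RPL23AP42 at 3096, 3284 and 3459 TPM, whose sequence copies a ribosomal protein gene, so that reads of RPL23A could be counted there. The next were a pair of unnamed lincRNA genes on chromosome 21, ENSG00000279501 at 2943 ± 116 TPM and ENSG00000280441 at 2526 ± 190 TPM. They start at bases 8996496 and 8380665, and the first has only 227 exon bases. Their estimated counts are not all whole. Whether these reads came from the genes or from similar sequences elsewhere was not tested. GPX1, a selenium-dependent glutathione peroxidase that GENCODE release 29 files as a polymorphic pseudogene, stood at 703, 716 and 680 TPM. The nuclear noncoding RNAs MALAT1 and NEAT1 averaged 468 ± 59.1 and 136 ± 25.1 TPM.

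Mitochondrially encoded mRNAs stood above nearly all nuclear ones. MT-CO1, a core subunit of cytochrome c oxidase, read 39630, 41190 and 46917 TPM, and MT-CO2 and MT-CO3 averaged 27398 ± 2460 and 26891 ± 1925 TPM. MT-ND6, a subunit of complex I and the one mRNA encoded on the other strand, was the lowest of the 13 at 2414, 2501 and 2197 TPM. Replicate 3 was the highest library for MT-CO1 and the lowest for MT-ND6.

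Targets of NRF2 were expressed throughout. All 31 listed genes were at 1 TPM or more in each library, beside 61.8% of all nuclear protein-coding genes, and 23 of them exceeded 100 TPM in each. Their median level was 306 TPM, against 6.02 TPM over all nuclear protein-coding genes. Their summed level was 56845, 56673 and 56150 TPM, most of it ferritin. Full expression was not particular to this list, since all 27 TCA cycle, 20 G2/M and 20 p53 target genes were expressed too. NQO1, a quinone reductase (ENSG00000181019, chromosome 16 from 69706996 to 69726951, minus strand), stood at 1472, 1477 and 1374 TPM. PGD, which makes NADPH in the pentose phosphate pathway, read 1149, 1157 and 1144 TPM.

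The thioredoxin branch of the list was led by TXN at 1406 TPM and PRDX1 at 1277 ± 113 TPM, with TXNRD1, the reductase that recharges thioredoxin, at 484 TPM. Glutathione genes of the list spanned a range. GCLC and GCLM, the subunits of the enzyme that starts glutathione synthesis, averaged 37.9 and 68.3 TPM, and SLC7A11, the cystine importer, averaged 68.3 ± 1.83 TPM, while the glutathione peroxidase GPX2 averaged 164 TPM. The aldehyde dehydrogenase ALDH3A1 stood at 862, 861 and 840 TPM. Of the AKR1C reductases, AKR1C2 averaged 619 ± 22.3 TPM and AKR1C1 67.0 ± 0.741 TPM; the sequences of this pair are nearly identical, so their ratio is uncertain.

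Promoters of NRF2 targets were searched for the antioxidant response element, the sequence NRF2 binds, as TGACNNNGC on one strand or GCNNNGTCA on the other. Promoters here are the 250 bases before to 50 after the start, from RefSeq on GRCh38.p14. They were at hand for 20 of the 31 genes, under 80%, so a share over the list would be void; 7 of the 20 held a match, and over all 27305 genes with a promoter 4384 (16.1%) did. The 4 windows below are those of the list members with the highest level among those whose first match lies wholly before the start, with the match in capitals, to show where it stands in the promoter; a match is a description and not a bound site. The windows, 5′ to 3′ on the strand of the gene, are PGD at chr1:10398838-10398897 (plus strand, match starting 201 bases before the start), TXNRD1 at chr12:104286905-104286964 (plus strand, 102 bases before), CBR1 at chr21:36069840-36069899 (plus strand, 159 bases before) and GPX2 at chr14:64942833-64942892 (minus strand, 122 bases before).
PGD: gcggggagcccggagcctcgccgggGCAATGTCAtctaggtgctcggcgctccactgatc
TXNRD1: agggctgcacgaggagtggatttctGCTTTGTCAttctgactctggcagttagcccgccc
CBR1: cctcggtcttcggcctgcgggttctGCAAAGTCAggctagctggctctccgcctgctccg
GPX2: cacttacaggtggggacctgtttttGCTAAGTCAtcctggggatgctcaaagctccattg

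The label was checked against lung cell markers, and the surfactant genes of AT2 cells were at or near 0. Of 15 AT2 markers, 6 were expressed, 5 low and 4 silent. SFTPC, the surfactant protein restricted to these cells, stood at 0.0805, 0.0885 and 0.0860 TPM, and SFTPB was at 0, 0 and 0.101 TPM. SFTPA1 and the pepsinogen PGC had 0 counts in the 3 libraries, which for SFTPA1 allows up to 0.0552 TPM (a limit of 3 counts over the libraries). NKX2-1, the factor that sets lung identity, was at 0.203, 0 and 0 TPM. In bulk RNA a low level in all cells and a higher level in few cells cannot be told apart.

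The highest of the AT2 markers was LPCAT1. This enzyme, which remodels phosphatidylcholine, stood at 191, 196 and 194 TPM, and ABCA3, the lipid pump of the lamellar body, at 33.7, 34.4 and 34.9 TPM. ETV5, a transcription factor, and LAMP3, a lysosomal membrane protein, averaged 21.6 and 11.6 TPM, and the protease NAPSA averaged 1.40 TPM. For type I alveolar cells (AT1), 7 of 12 markers were expressed, led by CAV1 of caveolae at 104 ± 1.74 TPM and GPRC5A at 85.5 TPM, while AQP5, the water channel of these cells, and HOPX had 0 counts.

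Airway secretory genes gave a mixed picture. Among 10 goblet cell markers 6 were expressed, with AGR2, which folds mucins, at 127, 125 and 127 TPM, the gel-forming mucin MUC5AC at 47.3, 46.9 and 52.2 TPM and the factor SPDEF at 23.1, 22.8 and 29.01 TPM. Of 11 club and secretory markers 2 were expressed, the mucin MUC5B at 58.6 ± 5.34 TPM and LCN2 at 49.0 ± 2.02 TPM, and SCGB1A1, which defines club cells, had 0 counts, as had SCGB3A1 and WFDC2. Replicate 3 was the highest of the libraries for MUC5AC, MUC5B and SPDEF.

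Other airway types were represented by parts of their marker sets. The ciliated factor FOXJ1 averaged 0.105 TPM, and 2 of 10 ciliated markers were expressed, MCIDAS at 2.82, 2.83 and 3.15 TPM and CAPS at 2.10, 1.27 and 1.13 TPM. Basal and squamous markers were expressed in 8 of 12, led by PERP at 186 and ITGB4 at 86.0 TPM, while KRT5, which defines basal cells, averaged 0.0412 TPM and TP63 1.45 TPM. At a threshold of 2 TPM the count of expressed markers was 5 for the basal and squamous list and 1 for the ciliated list. Among neuroendocrine markers, the ubiquitin hydrolase UCHL1 (ENSG00000154277, chromosome 4 from 41256413 to 41268455, plus strand) stood at 808, 812 and 788 TPM and chromogranin CHGB at 17.98 ± 0.609 TPM. The lineage factor INSM1 and the hormones GRP and CALCA had 0 counts.

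Transcription factors of foregut endoderm were mostly expressed. Of 19 endoderm and gut factors 15 were at 1 TPM or more in each library, led by CEBPB at 220, 287 and 307 TPM, in which replicate 1 was the lowest library. FOXA2, a pioneer factor of endoderm, stood at 28.6, 32.7 and 33.1 TPM and HNF4A at 3.79, 3.39 and 2.85 TPM. The intestinal factor CDX1 had 0 counts, and FOXA1 averaged 1.58 ± 0.437 TPM.

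Liver-type secreted proteins covered a wide span of levels. Complement C3 stood at 286, 288 and 293 TPM, vitronectin VTN at 142, 140 and 137 TPM, and complement factor CFB at 128 ± 6.73 TPM. The fibrinogen chains were expressed together, with FGA at 131 ± 4.79, FGB at 95.2 ± 2.30 and FGG at 72.8 ± 1.58 TPM. Albumin (ALB) averaged 0.235 ± 0.209 TPM, and the apolipoproteins APOA2 and APOC3 and transthyretin TTR had 0 counts. In all, 10 of 24 were expressed, 8 low and 6 silent.

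Epithelial genes ranged widely in level. The simple keratins KRT18, KRT8 and KRT7 averaged 1987, 1786 and 1212 TPM, and E-cadherin CDH1 stood at 91.7, 88.6 and 95.5 TPM. Yet EPCAM averaged 1.96 ± 0.173 TPM, the splicing factor ESRP1 0.0457 TPM and OVOL1 0.0119 TPM, and GRHL2, a factor that maintains epithelial identity, had 0 counts, which allows up to 0.0223 TPM. Of 23 genes of simple epithelial identity 12 (52.2%) were expressed, beside 61.8% of all nuclear protein-coding genes.

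Of 22 mesenchymal genes 14 (63.6%) were expressed, a share near that of all nuclear protein-coding genes. Vimentin VIM stood at 721, 764 and 756 TPM, N-cadherin CDH2 at 73.5, 79.5 and 78.7 TPM, fibronectin FN1 at 116 ± 3.56 TPM and the EMT factor ZEB1 at 14.1 ± 0.868 TPM. S100A4 read 909, 842 and 657 TPM, lowest in replicate 3. Genes usual in fibroblasts were at lower levels. The collagen gene COL1A1 stood at 2.89, 3.79 and 2.81 TPM, LUM at 3.24, 3.56 and 2.60 TPM and ACTA2 at 8.84 TPM on average, while SPARC, a matrix protein, averaged 0.66 TPM and COL3A1, PDGFRA and PDGFRB were each under 0.1 TPM.

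Most leukocyte, endothelial and erythroid markers were low or silent, with 9 of 19, 8 of 10 and 7 of 9 silent. The leukocyte gene PTPRC averaged 0.00466 TPM, and CD3D, CD3E, MS4A1, MPO and TPSAB1 had 0 counts. The summed level of the 19 leukocyte markers was 18.5, 18.9 and 20.5 TPM, carried by 4 expressed genes, CD14 at 5.57, CD74 at 4.10, KIT at 3.38 and ITGAM at 2.85 TPM. None of 10 endothelial markers was expressed, their sum was 0.924, 0.760 and 0.780 TPM, and ERG had 0 counts. None of 9 erythroid markers was expressed either, and HBG1, HBG2 and ALAS2 had 0 counts.

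Some genes usually named for neurons, muscle or germ cells were expressed. The neuronal tubulin TUBB3 stood at 325, 316 and 325 TPM, and SNAP25, a protein of vesicle fusion, at 79.4, 77.1 and 74.2 TPM, and 6 of 12 neuron and glia markers were expressed. PRAME, a cancer-testis antigen, averaged 85.9 ± 1.49 TPM, whereas TYR and DAZL had 0 counts. Of 10 muscle markers the cardiac troponin TNNI3 alone was expressed, at 7.60 ± 1.06 TPM, and MYOD1, MYOG, ACTA1 and TNNT2 had 0 counts.

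**Figure D2:**
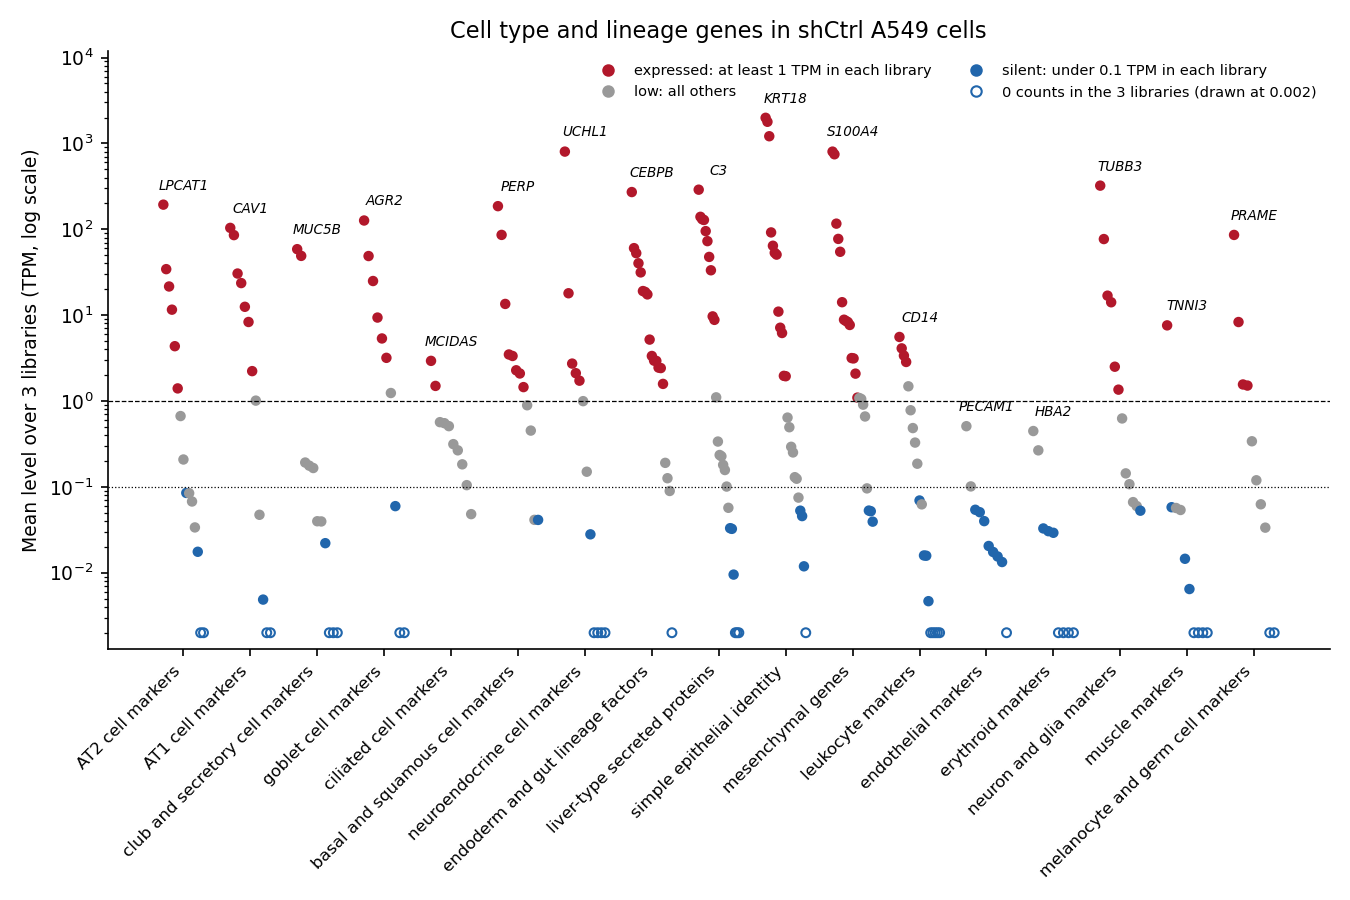
Mean level over the 3 shCtrl libraries (TPM, log axis) of every gene in 17 cell type and lineage lists, with expressed genes in red, low in grey, silent in blue and genes with 0 counts as open circles drawn at the bottom; the highest gene of each list is named. KRT18 at 1987 TPM is the highest point, the endothelial and erythroid lists have no red point, and the liver-type list runs from C3 at 289 TPM to open circles.

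The genes known to be altered in A549 were mostly transcribed. KEAP1 averaged 67.5 ± 1.19 TPM and NFE2L2, which encodes NRF2, 35.5 ± 1.92 TPM. STK11, a kinase upstream of AMPK, averaged 17.5 ± 0.185 TPM and SMARCA4, an ATPase of chromatin remodelling, 4.21 ± 0.162 TPM. The oncogene MYC stood at 163, 175 and 188 TPM.

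Both CDKN2A and CDKN2B were low by the rule used here. CDKN2A (ENSG00000147889, chromosome 9 from 21967753 to 21995301, minus strand), which encodes the cell cycle inhibitor p16 and ARF, stood at 0.385, 0.884 and 0.665 TPM. CDKN2B was at 0, 0.104 and 0.0338 TPM, whereas MTAP, its neighbour, averaged 10.2 ± 0.833 TPM. Which of these genes the deletion takes in was not tested. Whether these reads came from the genes or from overlapping transcripts was not tested, since the strand setting of the counting is not given in the sources used here.

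Of 38 receptor tyrosine kinases 21 (55.3%) were expressed, beside 61.8% of all nuclear protein-coding genes, led by EPHA2 at 247, 244 and 253 TPM and the hepatocyte growth factor receptor MET at 156, 152 and 158 TPM. EGFR stood at 74.4, 73.9 and 77.0 TPM and took 77.2 ± 0.752% of the summed level of the EGF receptor family, ahead of ERBB2 at 20.1 TPM. IGF1R and AXL averaged 51.7 and 46.6 TPM, and ALK, KDR, ERBB4 and both PDGF receptors were silent. Of 11 EGF receptor ligands 8 (72.7%) were expressed, with amphiregulin AREG at 81.3 ± 1.76, NRG1 at 65.7 ± 1.99 and epiregulin EREG at 48.7 ± 0.489 TPM, whereas EGF itself averaged 0.618 TPM.

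All 25 genes of the RAS and MAPK cascade were expressed, with a median of 30.4 TPM. DUSP4, a phosphatase that feeds back on ERK, led at 257, 262 and 254 TPM, and DUSP6 averaged 20.9 ± 1.83 TPM. ARAF was the first of the RAF kinases at 66.3 TPM with 61.7 ± 2.27% of their level, and BRAF the last at 3.71 ± 0.0281 TPM. In the PI3K and mTOR list 18 of 20 were expressed, with PIK3CB the first catalytic subunit at 13.9 TPM. AKT2 and AKT1 averaged 51.3 and 48.3 TPM, but 109 and 48.2 TPM with the length of the longest transcript.

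Notch signalling passes from a ligand on a neighbouring cell to a receptor whose cleaved domain enters the nucleus and switches on HES and HEY repressors. The ligand JAG1 stood at 79.5, 81.8 and 81.3 TPM and took 71.1 ± 1.03% of the ligands' summed level, with JAG2 next at 20.4 TPM. Among the receptors NOTCH2 came first at 19.1, 19.2 and 19.6 TPM, then NOTCH1 at 12.1 ± 0.117 and NOTCH3 at 5.09 ± 0.890 TPM, while NOTCH4 averaged 0.110 TPM. The gamma-secretase subunit NCSTN led the list of 30, of which 24 were expressed, at 106 TPM. Of the HES and HEY repressors, HES4 stood at 64.2, 75.8 and 81.5 TPM, lowest in replicate 1, and HES1 at 11.4, 10.6 and 11.4 TPM. HES4 took 72.4 ± 3.23% of that family, and HES5, a neural member, had 0 counts.

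Wnt and TGF-beta genes were represented by inhibitors, receptors and ligands. Of 42 Wnt genes 29 were expressed, led by the secreted inhibitor DKK1 at 471, 473 and 474 TPM and the R-spondin receptor LGR4 at 123 ± 1.65 TPM. WNT7B was the first ligand at 67.1 TPM and FZD2 the first Frizzled receptor at 73.5 TPM, and WNT2 and FZD10 had 0 counts. Of 30 TGF-beta and BMP genes 26 were expressed, with GDF15, a stress-induced ligand, at 189, 182 and 204 TPM, TGFBR2 at 149 ± 3.65 and TGFB1 at 145 ± 6.96 TPM. TGFB1 held 70.5 ± 1.08% of the TGF-beta ligands.

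The Hedgehog list was the least complete of the signalling lists described here, with 5 of 11 expressed. SMO, the transducer, averaged 20.9 TPM and GLI2 18.5 TPM, and the ligand SHH 1.23 TPM. At a threshold of 0.5 TPM the count was 8. All 17 genes of the Hippo pathway and its targets were expressed, led by WWTR1 (TAZ) at 79.8 and the secreted target CCN1 at 78.2 TPM, with YAP1 at 54.4 TPM. TEAD1 and TEAD4 lay close together at 68.3 ± 1.17 and 63.3 ± 5.67 TPM, and their order differed in 1 of the 3 libraries.

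**Figure D3:**
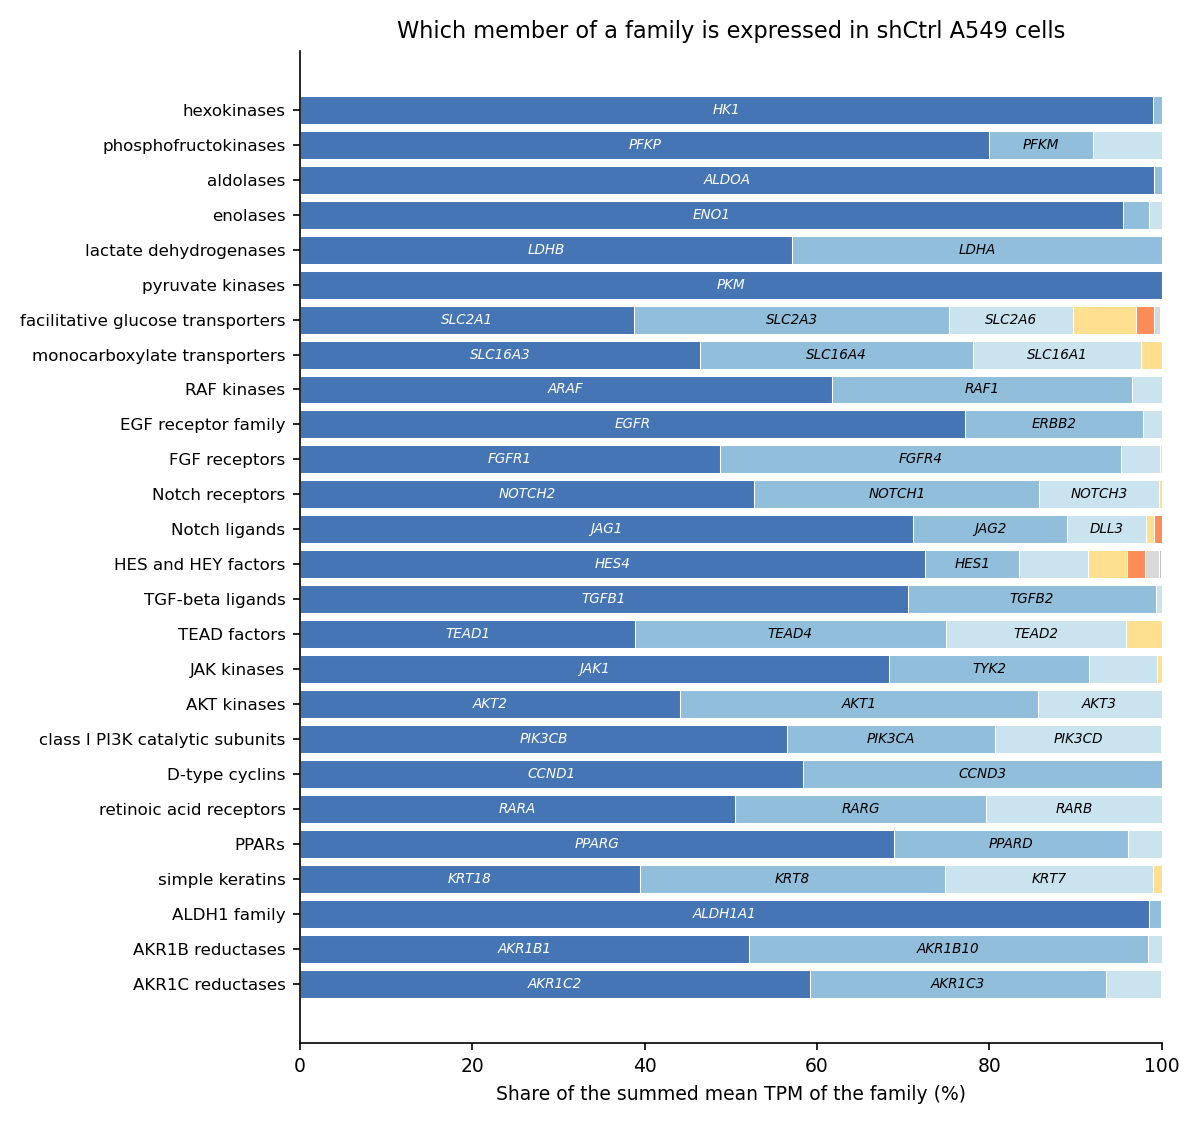
Share of each member in the summed mean level (TPM) of its family over the 3 shCtrl libraries, members running from the highest at the left, with those over 9% named. HK1, ALDOA, PKM and ALDH1A1 fill nearly their whole bars, HES4 takes 72.4% and EGFR 77.2% of their families, and SLC2A1 and SLC2A3 take near-equal parts.

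The control cells expressed many cytokines. Of 25 listed, 20 were expressed. CXCL5 (ENSG00000163735) led, and CCL5, a chemokine for T cells and monocytes, followed at 1149, 1181 and 1221 TPM, then the migration inhibitory factor MIF at 934 ± 35.2 and CXCL1 at 378 ± 3.12 TPM. CXCL8 averaged 74.5 ± 5.69 TPM and IL6 50.3 ± 3.50 TPM. Interferon mRNAs were counted too, with IFNL1 at 56.6, 69.8 and 70.1 TPM and IFNB1 at 13.7, 16.7 and 16.9 TPM, both lowest in replicate 1. Of 29 cytokine receptors and JAK-STAT genes 26 were expressed, among them the oncostatin M receptor OSMR at 154 ± 2.55 TPM.

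All 30 interferon response genes were expressed, beside 61.8% of all nuclear protein-coding genes, and 12 exceeded 100 TPM in each library. As with the NRF2 targets, full expression was not particular to this list. ISG15, a ubiquitin-like modifier, stood at 1170, 1136 and 976 TPM, IFI6 at 942, 896 and 732 TPM and IFIT3, which binds viral RNA complexes, at 547, 552 and 551 TPM. Replicate 3 was the lowest library for ISG15 and IFI6, but not for IFIT3. The summed level of the list was 5813, 5695 and 5320 TPM, and the median over its genes 75.0 TPM.

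Interferon-stimulated genes are switched on through a promoter sequence, the interferon-stimulated response element, here searched as GAAANNGAAA or, on the other strand, TTTCNNTTTC. Promoters were at hand for 23 of the 30 genes, under 80%, so a share over the list would be void; 17 of the 23 held a match, and over all 27305 genes with a promoter 1195 (4.38%) did. The windows below, from RefSeq on GRCh38.p14, are those of the 4 list members with the highest level that held a match before the start, printed 5′ to 3′ on the strand of the gene with matches in capitals to show their place and, in ISG15 and IFIT1, their repetition. They are ISG15 at chr1:1013359-1013418 (plus strand, first match starting 113 bases before the start), IFI6 at chr1:27672314-27672373 (minus strand, 156 bases before), IFIT3 at chr10:89327816-89327875 (plus strand, 156 bases before) and IFIT1 at chr10:89392482-89392541 (plus strand, 116 bases before). In ISG15 the matches overlap. IFI6 and IFIT3 also have several matches, which their windows do not hold in full. The further ones start 115 and 93 bases before the start in IFI6, and 122, 94 and 51 bases before in IFIT3.
ISG15: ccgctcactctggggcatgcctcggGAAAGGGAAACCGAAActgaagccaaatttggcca
IFI6: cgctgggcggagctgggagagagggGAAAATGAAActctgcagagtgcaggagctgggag
IFIT3: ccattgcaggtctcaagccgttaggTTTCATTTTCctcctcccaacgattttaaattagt
IFIT1: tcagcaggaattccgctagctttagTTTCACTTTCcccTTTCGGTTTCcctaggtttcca

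Antigen presentation and virus sensing genes were present. B2M, the light chain of class I molecules, stood at 515, 511 and 486 TPM, and 20 of 24 genes of this list were expressed, while the class II activator CIITA averaged 0.726 TPM. The protease CTSL, which cuts viral spike proteins in the endosome, stood at 2004, 1987 and 1875 TPM. TMPRSS2, a surface protease that also cuts them, had 0 counts, which allows up to 0.0221 TPM. The RNA sensors RIGI and IFIH1 averaged 97.1 and 54.9 TPM, and the DNA sensing adaptor STING1 1.02 TPM.

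Of 32 nuclear receptors 24 were expressed, led by the oxysterol receptor NR1H2 at 92.2 and ESRRA at 81.1 TPM. The glucocorticoid receptor NR3C1 averaged 33.2 TPM and the vitamin D receptor VDR 8.97 TPM, whereas the xenobiotic receptor NR1I2 was silent and the oestrogen receptor ESR1 averaged 0.0805 TPM. Among 31 genes of the cytochrome P450 list, 15 were expressed, 10 low and 6 silent. CYP24A1, which inactivates vitamin D, led at 410, 397 and 393 TPM, followed by CYP1B1 at 173, 169 and 169 TPM. The chief drug-metabolising P450 of liver, CYP3A4, averaged 0.0854 TPM, and CYP1A2 and CYP2B6 had 0 counts.

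In glycolysis 1 isoform held most of the level at several steps. HK1, a hexokinase, stood at 234, 243 and 228 TPM and took 99.0 ± 0.112% of its family, ahead of HK2 at 2.42 TPM. ALDOA took 99.1%, ENO1 95.5% and PFKP 80.0% of theirs. Lactate dehydrogenase was mixed, with LDHB at 1418, 1356 and 1256 TPM and LDHA at 1031, 1020 and 976 TPM. LDHB was above LDHA in each library by union exon length, and in 2 of the 3 with the length of the longest transcript.

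Glucose entry and lactate exit each had several genes. SLC2A1 and SLC2A3, glucose transporters, averaged 105 ± 3.28 and 99.1 ± 1.28 TPM, and this order turned round with the length of the longest transcript, at 101 and 104 TPM. SLC16A3, which exports lactate, averaged 114 ± 5.91 TPM. SLC2A2, the transporter of liver and pancreas, had 0 counts. The gluconeogenic genes FBP1 and PCK1 were silent at 0.0263 and 0.0138 TPM, G6PC1 had 0 counts, and mitochondrial PCK2 averaged 34.6 TPM.

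All 27 genes of the TCA cycle list were expressed, with a median of 83.5 TPM, led by MDH2 at 308 TPM. The urea cycle was partial. CPS1, the carbamoyl phosphate synthetase of mitochondria, stood at 255, 251 and 244 TPM and ASS1 at 60.7 ± 2.57 TPM, while OTC, the enzyme between them, had 0 counts, which allows up to 0.0783 TPM, and ARG1 averaged 0.0233 TPM.

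In amino acid metabolism PSAT1 of serine synthesis led its list at 348 TPM, whereas PHGDH, the first enzyme of that route, averaged 14.4 TPM. Among amino acid transporters, SLC7A5, the carrier of large neutral amino acids, stood at 910, 928 and 971 TPM, with its partner SLC3A2 at 399 and the glutamine carrier SLC1A5 at 380 TPM.

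Lipid synthesis genes were expressed throughout. The desaturase SCD stood at 1749, 1756 and 1737 TPM, ACLY, which makes cytosolic acetyl-CoA, at 765, 757 and 749 TPM and FASN at 299 ± 9.75 TPM, and all 21 genes of the fatty acid list were expressed. Of 22 genes of cholesterol synthesis 21 were expressed, with a median of 82.6 TPM.

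Cell cycle genes were expressed in nearly full sets, 22 of 23 for G1/S and all 20 for G2/M. PCNA, the sliding clamp, stood at 1096, 1094 and 1026 TPM, and the proliferation marker MKI67 at 103, 98.5 and 111 TPM. CCND1 and CCND3 averaged 187 ± 3.50 and 133 ± 6.196 TPM, an order that turned round with the length of the longest transcript (157 and 242 TPM), and CCND2 averaged 0.0749 TPM. CDKN1A, an inhibitor of cyclin-dependent kinases, stood at 254, 262 and 251 TPM. All 20 hypoxia response genes were expressed as well, led by HIF1A at 591 TPM, and 21 of 22 immediate early and heat shock genes, with HSPA1A at 634, 672 and 690 TPM.

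Spread between the libraries was small for most genes. Over 9045 genes of any type with a mean of at least 10 TPM, the median CV of CPM was 4.06%, with 1.43% at the 10th and 9.28% at the 90th percentile. The CV expected from counting error alone, taken from the mean count of each gene, had a median of 2.90%. An observed CV over 3 libraries lies in median below the expected one, so 4.06% and 2.90% do not compare directly. Below a CV of 10% stood 8302 genes (91.8%), and above 20% stood 106 (1.17%). Without replicate 3 the median CV was 2.59%, against 3.51% without replicate 1 and 3.79% without replicate 2. A median CV over 2 libraries runs lower than over 3, so these values do not compare directly with 4.06% or 2.90%. The common biological coefficient of variation, the spread beyond counting error that edgeR fits over 15574 genes, was 4.81%, and 3.05% without replicate 3.

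Replicate 3 was the library farthest from the others in 4029 of the 9045 genes (44.5%). It departed more than 1.2-fold from the mean of the other libraries in 405 genes, 119 higher and 286 lower, against 266 genes in replicate 1 and 206 in replicate 2. The median log2 departure of replicate 3 was 0.18 over the 13 mitochondrially encoded mRNAs, of which 12 were higher, and -0.16 over the 79 ribosomal protein genes, of which 4 were higher. It was -0.05 over the 1715 genes with the shortest exon length and 0.02 over the 1714 with the longest, of 5 bins by length. What part length, mitochondrial share or depth has in the position of replicate 3 was not tested.

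**Figure D4:**
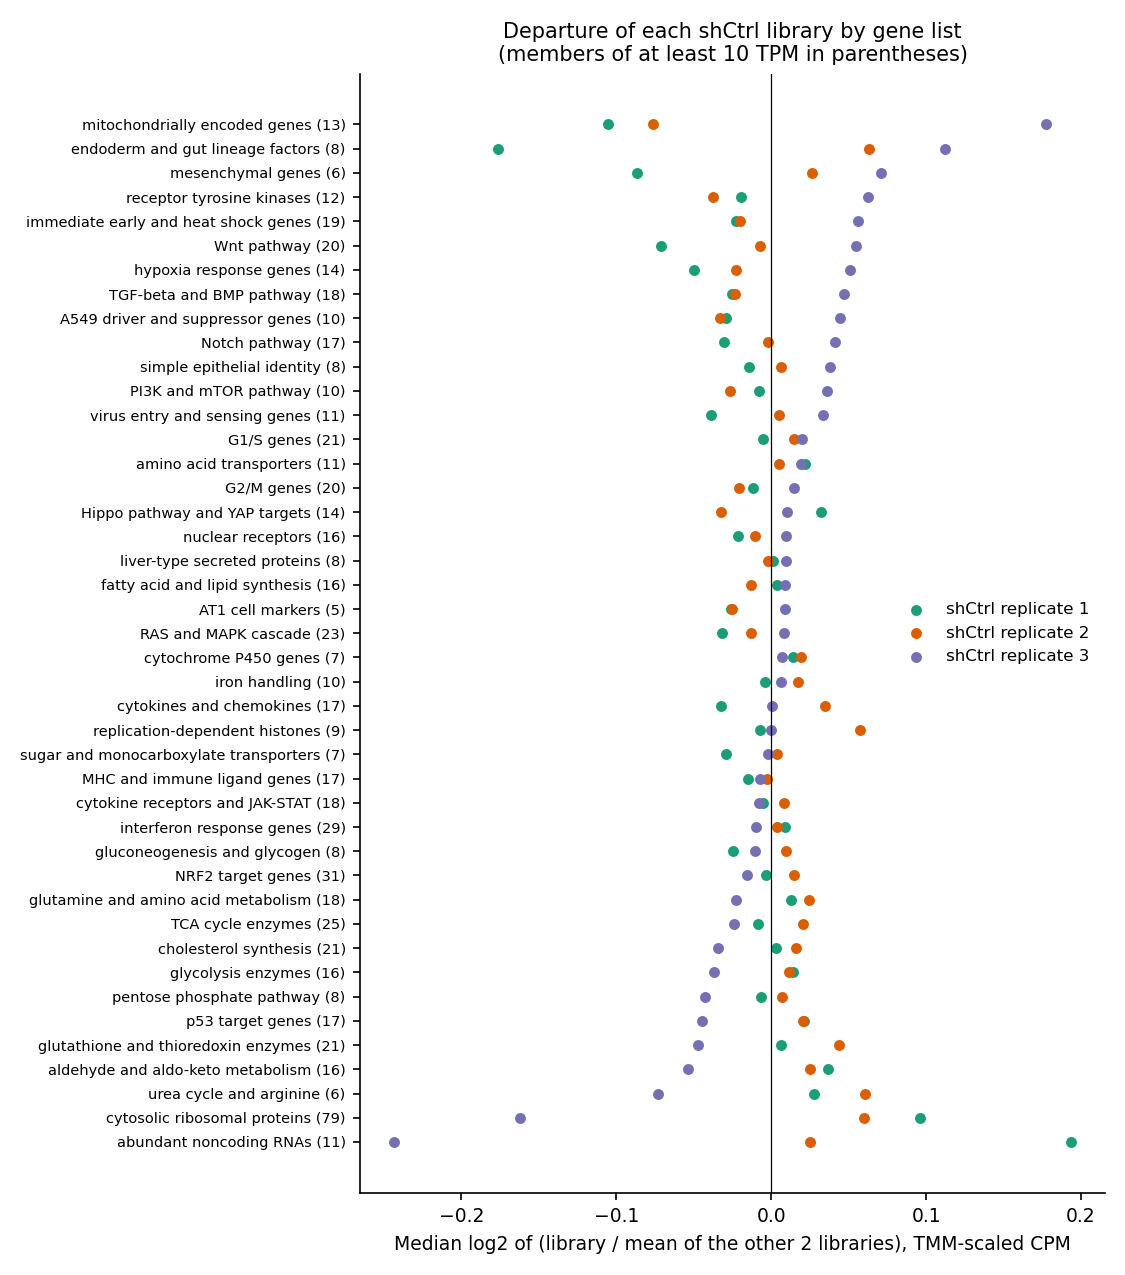
Median log2 of each shCtrl library over the mean of the other 2 (TMM-scaled CPM) for the gene lists with at least 5 members of at least 10 TPM, a point for each library. Replicate 3 lies at 0.18 for mitochondrially encoded genes, -0.16 for ribosomal proteins, -0.24 for abundant noncoding RNAs and 0.11 for endoderm and gut lineage factors. Replicate 1 lies at 0.19 for abundant noncoding RNAs, -0.18 for endoderm and gut lineage factors and -0.11 for mitochondrially encoded genes. Most other lists lie within 0.1 of 0 in all libraries.

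Single genes departed further. Of the 12 nuclear protein-coding genes with the largest CV, 5 have a symbol in the reference. HSD11B1L, a short-chain dehydrogenase, stood at 12.7, 14.8 and 5.498 CPM, low in replicate 3, and CHCHD10, a mitochondrial protein, at 20.8, 41.4 and 39.1 CPM, low in replicate 1. The histone genes H4C15, at 16.8, 8.29 and 8.82 CPM, and H4C1 were high in replicate 1, and histone copies share sequence, so their counts are uncertain. SHLD1, a DNA repair factor, read 7.33, 5.06 and 4.15 CPM. The largest CV, 76.9%, belonged to ENSG00000285976 at 18.8, 33.4 and 4.41 CPM. Its estimated counts of 497, 799.68 and 107.35 are not all whole, and those of HSD11B1L are not whole either. How far the division of reads between gene models sets these departures was not tested.

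Away from the largest values, the calcium-binding protein S100P read 8.31, 8.15 and 4.97 CPM, low in replicate 3, and GADD45B, a stress-response gene, 9.52, 8.82 and 12.3 CPM, high in replicate 3. Among the 6 genes with the smallest CV were UBB, YWHAZ, IFT25, TRIM22 and CLCN7. The ubiquitin gene UBB read 848, 849 and 848 CPM, a CV of 0.0785%, under the 0.688% expected from counting error alone.

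**Figure D5:**
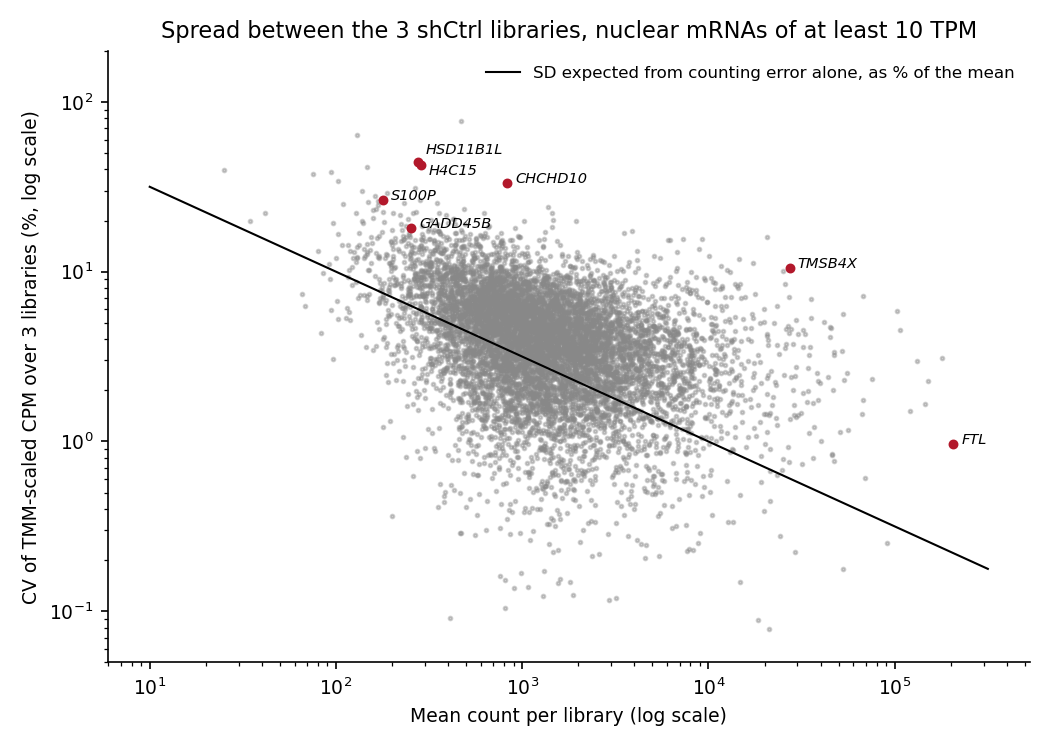
CV of TMM-scaled CPM over the 3 shCtrl libraries (%, log axis) against the mean count per library (log axis) for 8571 nuclear protein-coding genes of at least 10 TPM, a point for each gene, with the line that counting error alone gives. Most genes lie above the line at high counts, FTL lies at 0.962%, and CHCHD10, HSD11B1L and H4C15 lie above 30%.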

How the data were processed

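The authors deposited a table of estimated counts per gene for 60664 Ensembl human gene identifiers, of which the 3 shCtrl columns were used; 35.4% of the nonzero values are not whole (tolerance 1e-06). Which aligner, counter, annotation and strand setting made it is not given in the sources used here. GRCm38 and mm10, named in the submitters' processing notes, are mouse builds; as the identifiers are human, neither was used. TRIzol extraction and a SMARTer library kit are stated per the labels' protocols. TPM were computed here from the deposited estimated counts and the union exon length of GENCODE release 29 (GRCh38), which gave a length for 58396 identifiers holding 99.9% of counts. The 2268 identifiers without a length have no TPM. CPM were scaled by TMM factors (edgeR 4.0.16, R 4.3.3), which also gave the common biological coefficient of variation on rounded counts after filterByExpr; DESeq2 1.42.0 gave alternative size factors. Tables and plots were made in Python 3.11.15.

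No comparison was tested. With totals of 23.9 to 26.4 M counts, precision is lowest where a gene has few counts. Lists (58, with 1167 genes) and families (30) were chosen with earlier results of these data known; 4 listed symbols had no value (H2AC18, H3C2, H3C3 and SOD2). Named genes are the 25 most abundant nuclear mRNAs, the 10 highest noncoding genes, the mitochondrial mRNAs, up to 6 highest and all zero-count members per list, the first members per family, and the extremes of spread. Further list members were picked for naming with their values known. Some genes the rule names are not reported here.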

Additional observations from a re-analysis of the deposited data

How the results depend on the processing

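The number of genes expressed, highly expressed or without counts stayed within 1.5 times of its value under each alternative run, over all genes and, in a check added after seeing the data, over nuclear protein-coding genes (other thresholds and gene lengths, no length, no mitochondrial genes, values under 0.5 taken as 0, and each library left out). The share of counts in the 25 genes with most counts was 12.8%, and 9.23% without mitochondrially encoded genes. The median CV of 4.06% was 10.5% for genes with a mean of at least 1 count. With each library left out it was 2.59% to 3.79%, lowest without replicate 3, but a median CV over 2 libraries runs lower than over 3. The common biological coefficient of variation of 0.0481 lay between 0.0305 and 0.0593 with each library left out, again lowest without replicate 3. The cause was not tested.

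The count of expressed genes per list stayed within 1.5 times in 57 of 58 lists at 0.5 TPM, 54 at 2 TPM, 57 with the longest transcript, and 58 with each library left out. At 2 TPM the counts were 1 in place of 2 for ciliated markers (1 also with the longest transcript), 5 in place of 8 for basal and squamous, 3 in place of 5 for neuroendocrine, and 2 in place of 4 for melanocyte and germ cell markers; at 0.5 TPM Hedgehog had 8 in place of 5. The first member was the same in 25 of 30 families with the longest transcript; it changed to CCND3, TEAD4, SLC2A3, KRT8 and SFTPC for D-type cyclins, TEAD factors, glucose transporters, simple keratins and surfactant proteins. No paired analysis was possible because only 1 group entered and nothing was tested. The values of low genes rest on few counts.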

Other observations

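Some levels stood apart from what the names of their families would lead a reader to look for. PRDX2, a cytosolic peroxiredoxin, read 1.103, 1.41 and 0.983 TPM, while PRDX1, PRDX5 and PRDX3 averaged 1277, 924 and 313 TPM. RPS29 was the lowest of the 79 ribosomal protein genes at 26.7 TPM, against a median of 488 TPM. Ribosomal protein genes have many processed copies, and the counting of near-identical copies was not tested. Among replication-dependent histones, H2BC12 averaged 1197 ± 49.0 TPM, while H1-4 and H2AC8 had 0 counts. HLA-Z, a pseudogene with an annotated length of 75 bases, stood at 730, 812 and 894 TPM on 427, 432 and 489 counts, so a short model sets its level.

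Iron handling was uneven beyond ferritin. The transferrin receptor TFRC averaged 153 ± 5.66 TPM and haem oxygenase HMOX1 336 TPM, whereas the exporter SLC40A1 averaged 5.19 TPM, the hormone HAMP was silent and mitochondrial ferritin FTMT had 0 counts, which allows up to 0.154 TPM.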
